A study of Drosophila melanogaster with 2 samples.

Results

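The Cpr genes of Drosophila melanogaster encode structural proteins of the cuticle, and 70 of the 13945 protein-coding genes on the 6 chromosome arms carry such a name. They were chosen by gene symbol alone (Cpr followed by a digit, in Ensembl release 115 on the dm6 coordinates), a rule that uses no binding value, though the family was picked with earlier results of these data known. Members whose gene bodies lay within 10 kb of the next member were joined, which gave 13 clusters holding 49 genes and left 21 single genes. Binding was that of mod(mdg4) with a C-terminal GFP, precipitated with an antibody against GFP from whole larvae of the third instar at the wandering stage, males and females pooled. All animals came from 1 transgenic line, stably expressing the fusion, and the 2 biological replicates, numbered 3 and 4, form a single group with no untagged or mutant group beside it. Forms of mod(mdg4) without the tag were not measured, and whole larvae mix the epidermis, which secretes cuticle, with all other tissues.

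Cuticular proteins of this family carry a chitin-binding domain and are secreted by epidermal cells onto the growing cuticle, each set of them at its own stage of the moulting cycle under pulses of ecdysone. Their genes arose by tandem duplication and sit in runs of short neighbouring genes. Mod(mdg4) is a BTB-domain protein that joins DNA-binding insulator proteins such as su(Hw). Insulators are elements known for separating neighbouring regulatory domains, so both the starts of these genes and the edges of their clusters are places where binding can be recorded.

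Peaks were placed by their summits, the position of highest enrichment in each peak. The list used throughout holds the peaks that passed the authors' procedure on the irreproducible discovery rate (IDR), which compares the ranks of peaks between replicates. Peaks on it can still rank far apart. The one to the right of Cpr30F stood at place 17160 by signal in replicate 3 and 3887 in replicate 4. The list has 6294 peaks, 6273 of them on the arms. A start peak is a summit within 500 bp of any annotated transcript start of a gene. Signal is the peak caller's own enrichment value. It comes from the pooled reads unless a replicate is named, its scale belongs to its list, and single pooled values therefore have no replicate error. Sequencing depth is unknown, because the lists give no read counts. With 1 group there is no test between conditions. Members are described by counts and medians beside the same values over all protein-coding genes or all arm summits, and no statement on what is particular to the family is drawn from them.

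Cpr genes seldom carried a start peak. Only 2 of the 70 (2.86%, exact 95% binomial interval 0.348 to 9.94) had one, where 18.7% of all protein-coding genes did. These were Cpr62Ba and Cpr72Eb. Most Cpr genes have a single annotated start, and among the 63 that do, 1 had a start peak (1.59%, interval 0.0402 to 8.53), against 13% of all genes with 1 start. In the strongest 6294 peaks of each replicate taken alone, 2 members had a start peak in replicate 3 (Cpr12A and Cpr62Ba, background 19.6%) and 1 in replicate 4 (Cpr62Ba, background 21.4%). Cpr62Ba was thus the member found in all 3 lists. The intervals cover the number of genes only, and neighbouring genes of a cluster are not independent.

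The peak beside Cpr62Ba, the leftmost of 3 genes in its cluster on 3L, was of another order than that beside Cpr72Eb. Its summit lay 155 bp upstream of the outer start, in the interval chr3L:1831778-1832053, between Cpr62Ba and its neighbour Cpr62Bb, which are transcribed in the same direction. The signal was 541.6, at place 399 among the 6273 arm summits. Replicate 3 gave 289.4 (place 549 of 29999 peaks) and replicate 4 gave 250.9 (place 353). The peak upstream of Cpr72Eb had its summit 467 bp from the start, close to the limit of 500 bp, in chr3L:16364224-16364639. Its signal of 131.6 stood at place 5204. The peak overlapping it had 79.7 in replicate 3 (place 5486) and 38.2 in replicate 4 (place 10010), and the summit of replicate 3 was over 500 bp from the start. The next members outside the limit were Cpr73D, with a summit at 891 bp, and Cpr47Ee, at 896 bp.

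Below the threshold of the list, few Cpr starts held even a weak peak. The authors' full lists contain 29999 peaks each and reach into background. In the pooled full list 12 of the 70 members (17.1%) had a summit within 500 bp of a start, against 35.3% of all genes. In the replicate lists it was 7 members (10%) against 37.2% in replicate 3 and 16 (22.9%) against 39.3% in replicate 4. Both replicates held one at 6 members (8.57%, background 30.2%), namely Cpr12A, Cpr49Ac, Cpr51A, Cpr62Ba, Cpr78E and Cpr92F. At 52 members none of the full lists held a summit within that distance. The 12 pooled values had a median signal of 43.5, where the 4919 genes with any pooled start peak had 124. Among members without a start peak in the thresholded list, the strongest was at Cpr12A on X, with 107.6 (place 6734, just under the thresholded list), 75.1 in replicate 3 and 28.7 in replicate 4. Cpr49Ac followed with 70.4 (42.6 and 38.5), Cpr51A with 66.3 (48.2 and 23.2) and Cpr92F with 47.9 (24.7 and 25.1). The remaining 6 of the 10 strongest, Cpr67Fa2, Cpr49Ab, Cpr49Ae, Cpr78E, Cpr31A and Cpr78Ca, had between 32.3 and 39.

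The summits nearest to Cpr starts lay a few kilobases away. For 32 of the 70 members (45.7%) the nearest summit was 1001 to 5000 bp from a start, where 18.8% of all genes fell into that class. The median distance was 4777 bp for Cpr genes (quartiles 2426 and 13645 bp), against 7475 bp for all protein-coding genes (1395 and 19143 bp) and 9068 bp for those with 1 start. Cpr genes thus had fewer summits at their starts and a shorter median distance, beside a background not matched for gene density. Clustered members had a median of 4170 bp and single members one of 5537 bp. Neighbouring members share summits: the 70 genes had 40 distinct nearest summits, and the 32 genes in the class of 1001 to 5000 bp had 22. Of the 68 members without a start peak, the nearest summit was upstream of the start for 26 and downstream for 42 (61.8%), where it was downstream for 47.7% of the 11332 genes without a start peak. This difference was not tested.

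**Figure D1:**
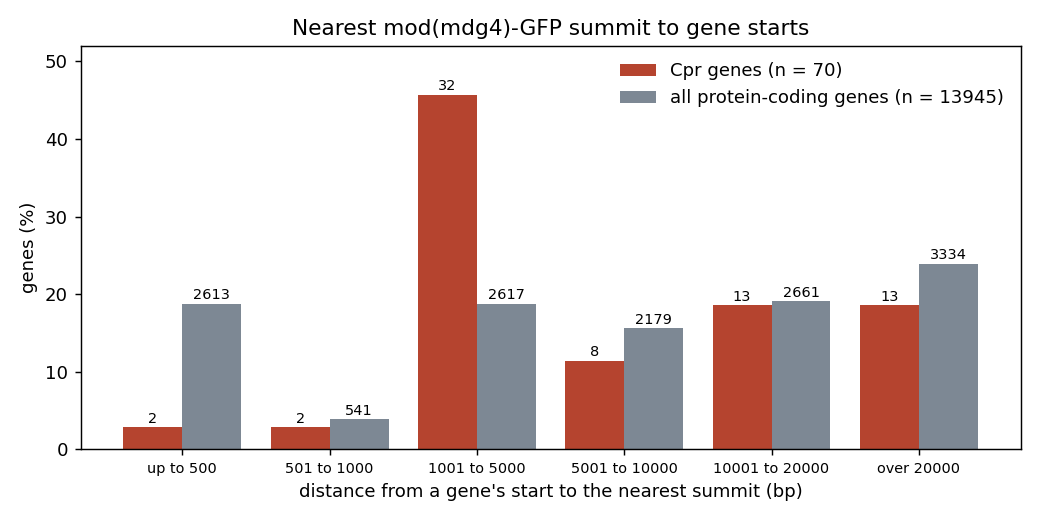
Share of genes by the distance from a start to the nearest summit of the thresholded list, for Cpr genes (left bars) and all protein-coding genes (right bars), with the number of genes above each bar. The class up to 500 bp holds 2 Cpr genes (2.86%) against 18.7% of all genes, and the class of 1001 to 5000 bp holds 32 (45.7%) against 18.8%.

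Within the clusters, summits were about as dense as on the arms, with a different placing. The 13 clusters span 202 kb and hold 11 summits, or 54.4 per Mb (exact Poisson 95% interval 27.1 to 97.3), against 46.9 per Mb over the arms. Within 500 bp of any protein-coding start the clusters had 3 summits in 69.0 kb, or 43.5 per Mb (interval 8.97 to 127), against 172 per Mb on the arms. Elsewhere they had 8 summits in 133 kb, or 60.0 per Mb (interval 25.9 to 118), against 30.7 per Mb. The strongest 6294 peaks of either replicate gave 2 summits near starts (29.0 per Mb) and 8 elsewhere (60.0 per Mb). On the arms those lists had 177 and 30.0 per Mb in replicate 3 and 187 and 28.7 per Mb in replicate 4. In the full pooled list, most of which is below the threshold, the clusters held 188 summits per Mb near starts, against 437 on the arms, and 248 elsewhere, against 196. These intervals cover counting error only, and those of the clusters are wide. The arms were taken whole, with starts up to 3.515e+06 bp from the nearest summit. Sequence within 500 bp of a start made up 34.1% of the clusters and 11.5% of the arms. The values elsewhere are therefore not matched for gene density.

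**Figure D2:**
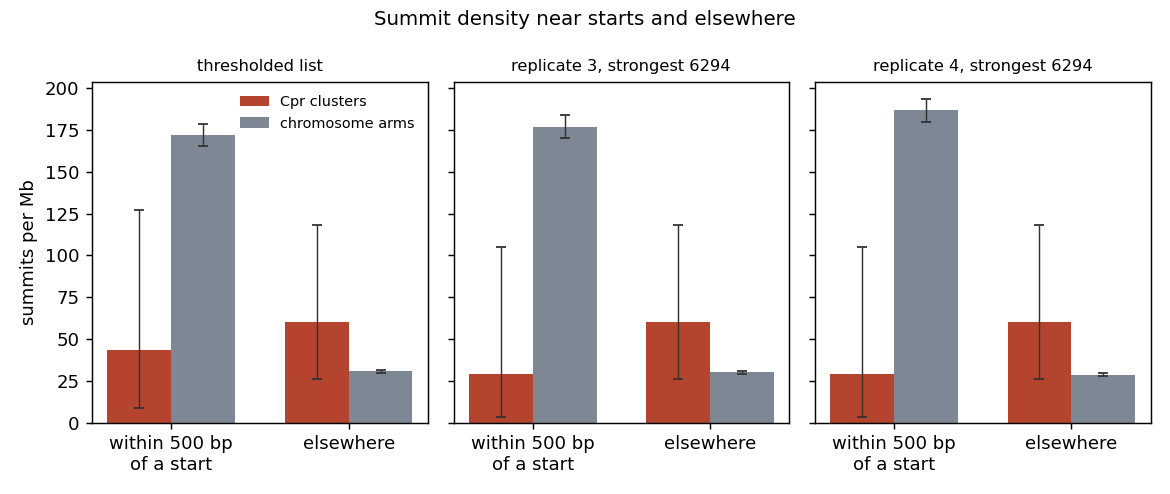
Summits per Mb within 500 bp of any protein-coding start and elsewhere, in Cpr clusters (left bars) and on the chromosome arms (right bars), for the thresholded list and the strongest 6294 peaks of each replicate; bars with exact Poisson 95% intervals. Near starts the clusters stand at 43.5, 29.0 and 29.0 per Mb, below the arms at 172, 177 and 187, and elsewhere they stand at 60.0 per Mb in all 3 lists.

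The 11 summits inside clusters fell into 7 of the 13 clusters. Sequence between genes held 8 of them, introns 2 and a coding exon 1. Over all arm summits 38.0% were between genes, 47.9% in introns and 0.574% in coding exons. How much of the cluster sequence is intron or lies between genes was not measured, so these shares are not matched for it. Their median signal was 259, against 186 for all arm summits, and 8 of the 11 exceeded that median. A peak overlapped each of them in both full replicate lists, and 9 were among the strongest 6294 of both replicates. The thresholded list was itself derived from both replicates. No share over all arm summits is given beside these counts, so nothing particular to the clusters is read from them.

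The cluster with the most summits was that of 7 genes on 2R, Cpr47Ea to Cpr47Eg, which holds 3. The strongest (388.3, with 222.8 in replicate 3 and 163.9 in replicate 4) lay 1051 bp upstream of Cpr47Ee, between it and the divergent Cpr47Ed. The next (240.6, with 152.2 and 85.9) was in an intron of Cpr47Ee, 896 bp downstream of its start. The weakest (138.1, with 64.7 and 76.7) was in a coding exon of Cpr47Ea. In the group Cpr49Ae to Cpr49Ah, also on 2R, 1 summit (327.7, with 174.9 and 155.7) was in an intron of Cpr49Ae. The other (312.0, with 155.5 and 155.2) was between CG30050 and CG33626, 287 bp from the start of CG33626. Neither of these genes belongs to the family by name. The adjoining group Cpr49Aa to Cpr49Ad had none inside. Both groups are separated by 10517 bp, just over the joining distance, while the widest joined gap was 7270 bp (Cpr49Ab to Cpr49Ac).

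The array at Cpr65A on 3L holds 7 Cpr genes, Cpr65Au to Cpr65Az, interspersed with the larval cuticle protein genes of the Lcp65A group and the adult one, Acp65Aa. In its 30.3 kb a single summit was recorded (190.2, with 116.0 and 78.2), at chr3L:6155974-6156389, between Acp65Aa, whose start was 3437 bp away, and CG13297. The starts of the 10 Lcp65A and Acp65A genes inside the cluster lay between 3437 bp (Acp65Aa) and 12787 bp (Lcp65Ad) from their nearest summit. The pair Cpr65Ax1 and Cpr65Ax2 is identical over 456 aligned bases, so reads that fall wholly within that stretch cannot be assigned to 1 copy, and how such reads were treated is not stated in the labels or files.

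The remaining clusters with a summit inside lie on 3L too. Besides the peak at Cpr62Ba, the Cpr62B cluster held a second (259.4, with 133.5 and 128.2) between Cpr62Bb and Cpr62Bc, 662 bp past the end of Cpr62Bc. In Cpr67Fa1 to Cpr67Fb the summit (258.8, with 125.9 and 132.5) was between Cpr67Fa2 and Cpr67Fb, 1025 bp upstream of Cpr67Fb. In Cpr78Ca to Cpr78Cc it (184.1, with 90.6 and 85.9) was in the short gap between the ends of the convergent genes Cpr78Cb and Edg78E, 40 bp past Cpr78Cb and 25 bp from Edg78E, an ecdysone-dependent cuticle gene. The 6 clusters with no summit inside were Cpr49Aa to Cpr49Ad, Cpr50Ca to Cpr50Cb, Cpr64Aa to Cpr64Ad, Cpr65Ea to Cpr65Ec, Cpr76Ba to Cpr76Bd and Cpr97Ea to Cpr97Eb. The clusters also contain starts of 21 protein-coding genes outside the family, and 1 of these, CG33626, had a start peak (4.76%, background 18.7%).

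**Figure D3:**
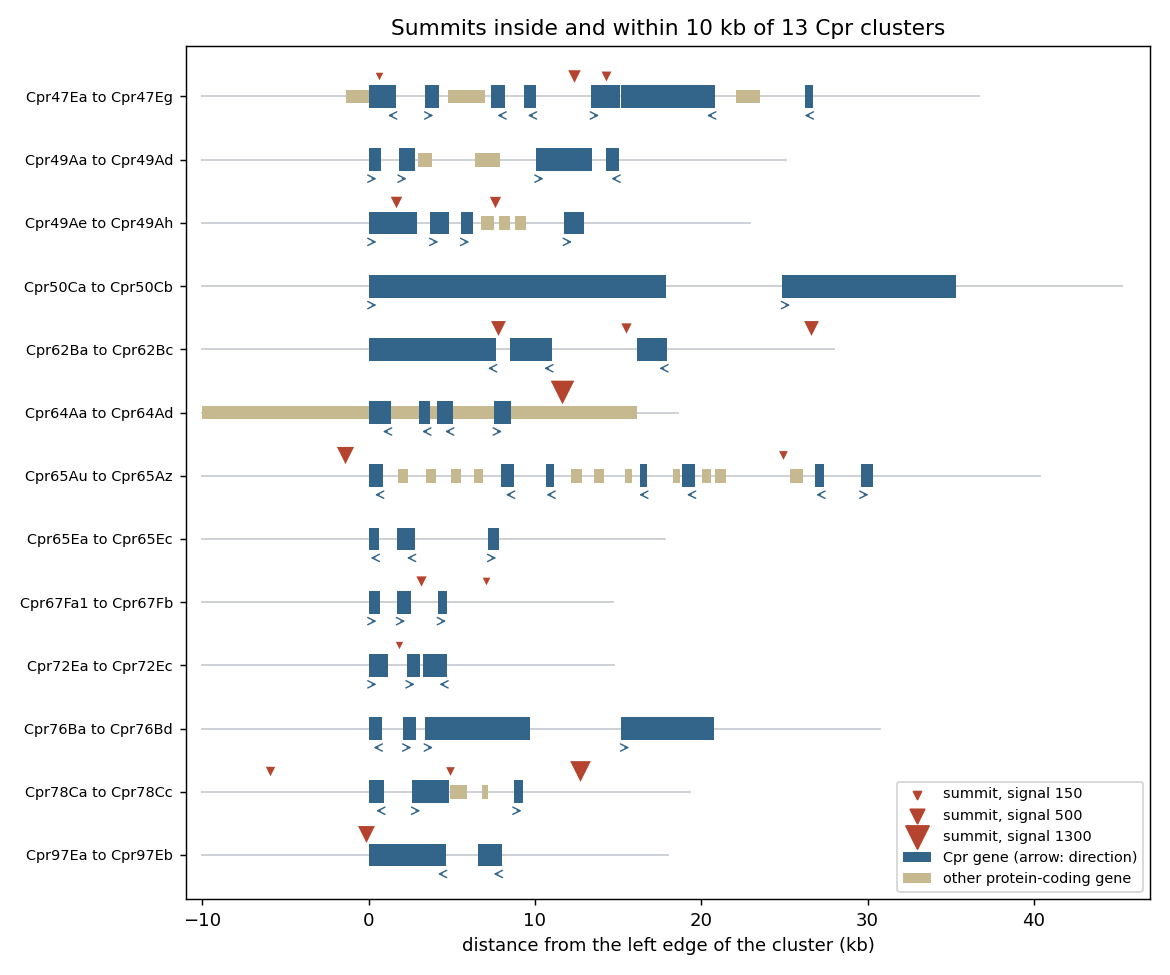
Map of the 13 clusters by distance from the left edge (kb), with Cpr genes as dark boxes, arrows for the direction of transcription, other protein-coding genes that overlap the cluster as light boxes (drawn to at most 10 kb outside it), and summits as triangles whose area follows the signal. Of the 11 inside summits 8 stand between genes, and the largest triangle is the summit of 1373.6 beyond Cpr64Ad.

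Among the 21 single genes, Cpr51A held 1 summit and Cpr73D held 2 in the gene body. Overall 5 members (7.14%) had a summit in the gene body, against 13.1% of all genes. Cpr genes are short, with a median length of 1094 bp against 2166 bp, and among genes of up to 5000 bp the shares were 6.35% (4 of 63) and 5.09%. The summit in Cpr51A (120.8, with 67.8 and 54.6) was 94 bp from the start of CG30197, a gene inside its intron. The stronger summit in Cpr73D (206.8, with 129.6 and 80.7) was 133 bp from a start of Ogdh, the gene of an enzyme of the citric acid cycle that overlaps it.

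Outside the clusters, the nearest summit was recorded on each side of every cluster, which gave 26 edges and 25 distinct summits. That to the right of Cpr49Aa to Cpr49Ad is the summit in Cpr49Ae, inside the neighbouring cluster. The median distance from an edge was 20200 bp (quartiles 9160 and 34507 bp, range 182 to 176505 bp), against 16102 bp from the ends of all protein-coding genes and 12261 bp from the ends of single Cpr genes. A median of 5 starts of other protein-coding genes lay between an edge and its summit, and 5 edges had none between. The summits were strong for the list: their median signal over the 26 edges was 316, against 168 at the 42 edges of single Cpr genes and 186 for all arm summits. Of the 25 distinct summits, 19 exceeded the median of the arms and 7 were among its strongest 627. All 25 were found in both full replicate lists, and 21 were among the strongest 6294 of both. All 42 summits at edges of single genes were in both full lists too. Because the thresholded list was derived from both replicates, such overlap is not particular to these edges. No share over all arm summits is given beside the 21 either, so nothing particular to the edges is read from that count. Of the 25, 9 lay within 500 bp of a protein-coding start (36%), beside 42.0% of all arm summits.

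The strongest summit beside any cluster was that next to Cpr64Aa to Cpr64Ad, 4 genes in 8.6 kb on 3L. It stood 3071 bp past the end of Cpr64Ad, at chr3L:4219269-4219645, in an intron of CG43367, the gene in which the cluster lies. Its signal was 1373.6, place 25 of the arm summits, with 817.0 in replicate 3 (place 44) and 557.1 in replicate 4 (place 50). On the other side the nearest summit (152.8) was 20929 bp away, at the start of VhaM9.7-c.

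Next in signal came the summit 3390 bp to the right of Cpr78Cc (1052.7, place 69, with 607.9 and 455.0), which lay 94 bp from a start of CG11309. To the left of the same cluster the nearest summit (217.5) was at the start of CG12974, 5947 bp away. The cluster Cpr62Ba to Cpr62Bc was flanked by a summit of 759.8 at the start of CG13921, 77391 bp to the left, and one of 541.1 at 8633 bp to the right, with 198 bp between it and the end of CNMa, a neuropeptide gene. The Cpr65A array had a summit of 722.4 (place 213, with 414.9 and 305.6) at 1403 bp from Cpr65Au, at chr3L:6129675-6129977. It stood between l(3)mbn and Lcp65Ag3, the outermost larval cuticle gene of the array. At the other end of the array the nearest summit (346.0) was 57174 bp away, near the start of LanA, a laminin gene. The pair Cpr97Ea and Cpr97Eb on 3R had a summit of 701.0 (place 233, with 386.1 and 322.4) 182 bp past the end of Cpr97Ea, at chr3R:27082766-27083130, in the gap that separates it from the convergent gene CG14257. Beyond Cpr97Eb the nearest summit (225.7) was 17334 bp away, close to the end of gb.

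The other edges had values between 123.2 and 456.5. On 2R the Cpr47E cluster stood between summits at CG7737 (241.0, 29018 bp) and in the 5' UTR of Fbl6 (321.5, 10740 bp). To the left, Cpr49Aa to Cpr49Ad and Cpr49Ae to Cpr49Ah share a summit at Den1 (413.7), 38613 bp from the first group. To the right, the summit at Dyb, the dystrobrevin gene, had 311.2 and was 22023 bp from the second group. Cpr50Ca to Cpr50Cb had the most distant summit, 176505 bp away at CG45088 (237.8), and on its other side one in fl(2)d (392.3, 17166 bp), a gene of the RNA methylation machinery. Cpr65Ea to Cpr65Ec lay between weak summits in Mp (138.3, 73515 bp) and near Acbp3 (183.8, 36337 bp). Cpr76Ba to Cpr76Bd, also without a summit inside, had values of 123.2 (19471 bp, near CG9449) and 186.1 (18651 bp, in the noncoding gene lncRNA:CR44677). Cpr67Fa1 to Cpr67Fb stood between summits in tna (218.6, 21751 bp) and Aps (142.3, 2350 bp), and Cpr72Ea to Cpr72Ec between one near CG13056 (456.5, 27518 bp) and one near RAF2 (129.3, 23610 bp).

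Single Cpr genes had weaker neighbours in most cases, with 2 of the 42 summits among the strongest 627. These were the one in a coding exon of CG34462, 7461 bp upstream of Cpr66Cb (1022.4, with 518.7 and 499.2), and the one in an intron of Zasp66, a muscle Z-disc gene, 12337 bp upstream of Cpr66D (825.2, with 481.2 and 349.9). The summit nearest to any single gene was 292 bp past the end of Cpr11A (171.4, with 96.9 and 69.6), in the gap before Lsp1alpha, a larval serum protein gene. One more lay 495 bp past the end of Cpr66Cb (211.0), at the start of the peroxisome gene Pex2, and another 849 bp past the end of Cpr31A (224.6), at the start of the importin gene Pen.

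**Figure D4:**
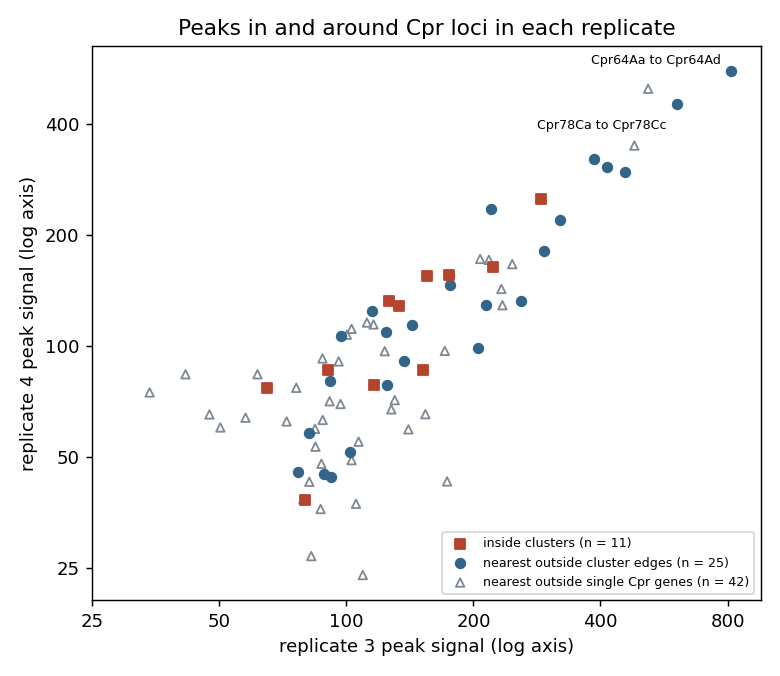
Signal in replicate 3 and replicate 4 (log axes) of the peaks that overlap the recorded summits, inside clusters, nearest outside cluster edges and nearest outside single Cpr genes. Each point is 1 summit, and the scales of the replicate lists are their own. The summit in Cpr49Ae (174.9 and 155.7) is drawn both as inside its cluster and as nearest outside the neighbouring cluster. The points beside Cpr64Aa to Cpr64Ad (817.0 and 557.1) and Cpr78Ca to Cpr78Cc (607.9 and 455.0) stand highest among those of clusters in both replicates.

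The sequence under 3 of these summits is shown because each holds the core string recognised by su(Hw), TGCATA, which was searched on both strands. Each window reaches 100 bp to both sides of the summit on the plus strand of dm6, read from the RefSeq genome, and capitals mark the core, which reads TATGCA where it lies on the other strand. The windows are those of the start peak of Cpr62Ba (chr3L:1831838-1832038), of the summit beyond Cpr64Ad (chr3L:4219385-4219585) and of the summit before the Cpr65A array (chr3L:6129739-6129939).
Cpr62Ba start: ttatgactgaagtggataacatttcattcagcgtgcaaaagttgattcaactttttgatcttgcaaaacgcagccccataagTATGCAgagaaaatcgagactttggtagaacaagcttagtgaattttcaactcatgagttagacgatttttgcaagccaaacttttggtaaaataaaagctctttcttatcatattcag
Cpr64A right flank: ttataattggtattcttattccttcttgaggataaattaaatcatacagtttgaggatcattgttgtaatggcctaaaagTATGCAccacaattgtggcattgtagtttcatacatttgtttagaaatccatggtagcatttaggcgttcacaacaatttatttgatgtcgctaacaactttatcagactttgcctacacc
Cpr65A left flank: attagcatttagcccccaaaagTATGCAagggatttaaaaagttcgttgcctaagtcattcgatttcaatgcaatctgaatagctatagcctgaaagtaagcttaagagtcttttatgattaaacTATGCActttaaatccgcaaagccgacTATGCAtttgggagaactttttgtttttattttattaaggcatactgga

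The core starts 18 bp before the summit at Cpr62Ba and 20 bp before the one beyond Cpr64Ad, and the window at the Cpr65A array has 3 matches. Over the whole set, 3 of 11 summits inside clusters, 4 of 25 at cluster edges and 11 of 42 at the edges of single genes had the core in their window, where 16.6% of all arm summits did. Among strong summits at cluster edges, those of 1373.6 and 722.4 held the core. Those of 1052.7, 759.8, 701.0, 541.1 and 456.5 did not. A longer string, TGCATACTT, was taken from the sequences shown, and was found at 2 of 11, 3 of 25 and 2 of 42 summits. These counts include the 3 windows it was taken from, so nothing is read from them beside the 3.87% of all arm summits and 12.6% of the strongest 627 that hold it. Its 5 cluster loci were Cpr49Ae to Cpr49Ah and Cpr62Ba to Cpr62Bc inside, and Cpr64Aa to Cpr64Ad, Cpr65Au to Cpr65Az and Cpr76Ba to Cpr76Bd at an edge. Of the other strings searched on both strands, the CTCF core AGNNGGCGC was at 0 inside summits, 0 cluster edges and 4 single-gene edges (3.79% of all arm summits). Motif 1 (GGTCACAC) was at 0, 0 and 3 (2.31%). The BEAF-32 element CGATA was at 3, 3 and 9 (28.7%), and the GAGA string GAGAG at 1, 4 and 7 (27.4%). The DRE, TATCGATA, which contains CGATA, was at 0, 1 and 0 (3.11%). Its single match, 38 bp from the summit to the right of the Cpr72E cluster, between RAF2 and CG44836, is shown in capitals in the window chr3L:16390850-16391050, plus strand, as an example of a flank with this promoter element and no su(Hw) core.
Cpr72E right flank: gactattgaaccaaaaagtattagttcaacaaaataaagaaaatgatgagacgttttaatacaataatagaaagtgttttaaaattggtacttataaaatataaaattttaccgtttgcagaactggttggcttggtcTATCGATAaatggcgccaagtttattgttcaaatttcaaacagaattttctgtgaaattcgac

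TATA boxes, the short element that places the start of transcription in many developmentally regulated genes, were frequent in Cpr promoters. In windows from 250 bases before to 50 bases after the outermost start, TATAAA was present on either strand in 49 of 70 Cpr promoters (70%), against 45.8% of all 13945. On the strand of the gene and with its first base 21 to 40 bp before the start, a window chosen after the data were seen, it was present in 34 of 70 (48.6%), against 7.73% of all promoters and 3.18% of those of the 2613 genes with a start peak. Elements of housekeeping promoters were rare: the DRE was in 1 Cpr promoter (1.43%, against 9.36% of all and 13.2% of those with a start peak), and Motif 1 in 0 (against 7.70% and 11.3%). The element CGATA was in 34.3% of Cpr promoters (47.4% and 53.7%), GAGAG in 32.9% (29.7% and 34.6%) and the initiator string TCAGT in 60% (51.5% and 49.7%).

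Among all genes with TATAAA in that window of 21 to 40 bp, 7.7% had a start peak, and among the others 19.7% did. For Cpr genes the counts were 1 of 34 (2.94%, interval 0.0744 to 15.3, Cpr72Eb) and 1 of 36 (2.78%, interval 0.0703 to 14.5, Cpr62Ba). The interval of the 34 covers 7.7%, so this count does not set them apart from other genes with TATAAA there. That of the 36 lies below 19.7%. Whether TATAAA bears on the low share of start peaks in Cpr genes was not tested. The window was chosen after the data were seen and genes of a cluster are not independent, so these shares are a description.

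To show these promoters, 1 member of each of 5 clusters is given from 50 bases before to 19 bases after its start, on its own strand, with the TATA box in capitals. They are Cpr62Bc (chr3L:1842065-1842134), Cpr64Aa (chr3L:4209159-4209228), Cpr65Av (chr3L:6139955-6140024), Cpr72Eb (chr3L:16364849-16364918) and Cpr97Eb (chr3R:27091111-27091180). Cpr72Eb alone is on the plus strand and alone has a start peak.
Cpr62Bc promoter: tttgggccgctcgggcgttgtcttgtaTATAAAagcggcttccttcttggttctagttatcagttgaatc
Cpr64Aa promoter: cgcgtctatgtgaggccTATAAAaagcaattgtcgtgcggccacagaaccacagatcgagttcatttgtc
Cpr65Av promoter: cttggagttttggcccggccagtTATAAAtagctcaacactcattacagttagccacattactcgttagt
Cpr72Eb promoter: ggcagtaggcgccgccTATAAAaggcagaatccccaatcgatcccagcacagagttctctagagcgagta
Cpr97Eb promoter: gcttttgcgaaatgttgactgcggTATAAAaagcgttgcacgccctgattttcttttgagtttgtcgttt

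**Figure D5:**
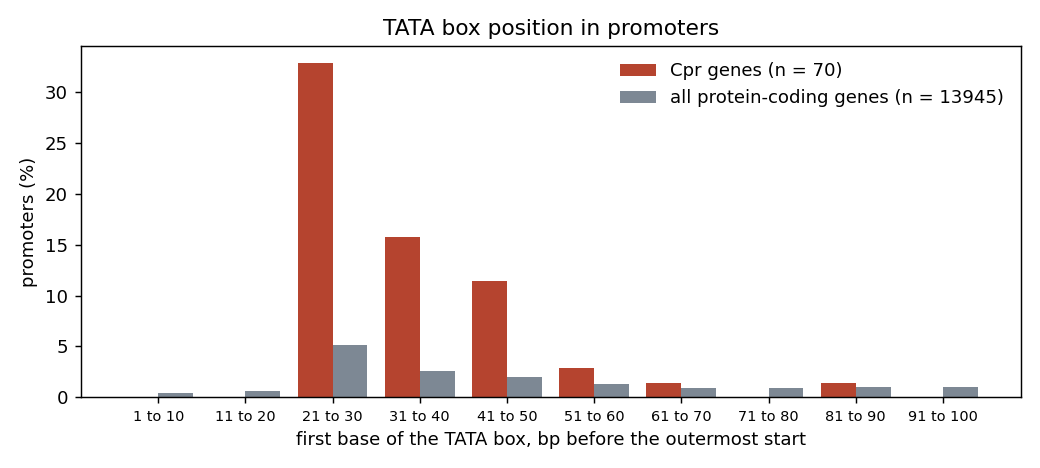
Share of promoters with TATAAA on the strand of the gene, by the distance of its first base from the outermost start in classes of 10 bp, for Cpr genes (left bars) and all protein-coding genes (right bars). The class of 21 to 30 bp holds 23 Cpr promoters (32.9%) against 5.18% of all, and that of 31 to 40 bp holds 11 (15.7%) against 2.58%.

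Counts differed among lists of other genes of cuticle formation. Of 59 cuticle protein genes outside the name rule (Lcp, Ccp84, Acp, Edg, Twdl and related symbols), 2 (3.39%, interval 0.413 to 11.7) had a start peak, beside the background of 18.7%. Lcp2 and Lcp3 share that 1 peak on 2R (551.6, with 307.7 and 244.4). Of 39 genes of chitin synthesis and turnover, 11 (28.2%, interval 15.0 to 44.9) had one. These were led by the chitinase gene Cht11 (330.1, with 206.6 and 102.2), the chitin deacetylase gene Cda5 (277.2), the hexosaminidase gene Hexo2 (222.7) and knk (212.9), which is needed to protect and order chitin. This list was drawn by gene symbol and takes in the Idgf genes, of which Idgf2, Idgf5 and Idgf6 had a start peak. None of 26 genes of tanning and pigment, such as Ddc and ple, had one (0%, interval up to 13.2). Of 15 factors known for control of cuticle genes 10 did (66.7%, interval 38.4 to 88.2), with usp (619.2), EcR (580.3), br (341.1) and Eip75B (295.0) in front. Only 2 of these 15 have a single annotated start.

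Among families of like arrangement, the 179 odorant, gustatory and ionotropic receptor genes had a similar share of start peaks (1.68%) and, joined by the same rule into 28 clusters of 199 kb in all, 2 summits inside (10.1 per Mb). The 7 clusters of other cuticle protein genes, 109 kb in all, held 1 summit (9.16 per Mb). Lcp65A genes and Acp65Aa lie within the Cpr65A array, so part of this sequence is also counted for the Cpr clusters. The 85 cytochrome P450 genes had start peaks in 14.1% and, in 16 clusters of 137 kb, 9 summits (65.7 per Mb). For Cpr genes the corresponding values were 2.86% and 54.4 per Mb. In start peaks the other cuticle protein genes (3.39%) were nearest to them, followed by the receptors, and in summits per Mb the P450 clusters were nearest of these 3 families. These differences were not tested.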

How the data were processed

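Chromatin immunoprecipitation with sequencing was analysed from the peak lists on dm6 that the authors deposited, 1 for each replicate, 1 for the pooled reads and 1 thresholded by IDR. Per the deposited file descriptions, the lists were derived from the aligned reads of each replicate, or of both together, with 1 further file whose content they do not state. Neither the caller nor the IDR threshold is given in the sources used here. The signal is the peak caller's enrichment as deposited, and the summit offset in bp is deposited beside it. Lists on dm3 were not used here, and no control library was analysed. Summits are peak start plus offset, counted from 1.

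Genes came from Ensembl release 115, and sequences from the RefSeq genome of the same assembly. Labels gave 1 group of 2 replicates. No test between samples was possible, and no enrichment test was run. Intervals are exact 95% binomial (shares) or Poisson (counts) and cover counting error only. Depth is unknown. The counting of start peaks was tested on simulated data. Python 3.11.15, NumPy 2.4.6, pandas 2.3.3, SciPy 1.17.1, Biopython 1.88 and matplotlib 3.10.9 were used.

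The members, lists and motifs were chosen with earlier results of these data known. Named genes are members with a summit at a start or in the gene body, the first and last gene of each cluster of at least 3, the genes whose starts are nearest to summits in and beside those clusters, the 10 strongest starts below the threshold and up to 4 genes per list. Clusters of 2, single genes named for their neighbouring summits and genes named for the place of a summit were chosen after their values were seen, as were the sequences shown. Alternatives changed the start window, the joining distance, the list and the replicate. The receptor and P450 families, the placed TATA box and the longer su(Hw) string were added after the data were seen. Protein sequences were not analysed.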

Additional observations from a re-analysis of the deposited data

How the results depend on the processing

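The count of Cpr genes with a start peak, 2 of 70, stayed below the share of all genes under each of the 8 alternatives. It was 1 with starts within 250 bp (background 14.9%), 4 within 1000 bp (22.6%), 1 in the stronger 0.5 of the list (11.8%) and 5 among the strongest 12588 pooled peaks (25.9%). Single replicates gave 1 to 2. The 11 summits inside clusters were 22 among the strongest 12588 pooled peaks, 10 in each replicate, and 8 to 11 under the other alternatives. The median distance from a cluster edge to its summit, 20200 bp, was 11416 bp with the strongest 12588 pooled peaks, which are denser, and 17266 to 21887 bp under the others (17266 to 20204 bp with single replicates). No paired analysis was possible because there is only 1 group. The main limits are small counts, unknown depth, whole larvae as the material and a single tagged line with no untagged group here.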
